A study of Homo sapiens with 6 samples.

Results

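The septins are a family of GTP-binding cytoskeletal proteins, and in the deposited table of this RNA-seq experiment their genes appear under spreadsheet dates in place of symbols. The rows named 2-Sep, 6-Sep, 7-Sep, 8-Sep, 9-Sep, 10-Sep and 11-Sep, taken as SEPT2, SEPT6, SEPT7, SEPT8, SEPT9, SEPT10 and SEPT11 (now SEPTIN2 to SEPTIN11), are described here. They are 7 of 13 rows with a September date and of 58735 gene rows in all. T24 is an established human cell line from a bladder urothelial carcinoma, labelled wild type. For 3 of the libraries the cells had received 10 ng/ml TGF-β1 during 48 h, 3 control libraries came from cells without it, and all 6 are labelled day 2, from cells kept in medium with 10% serum. Every value is FPKM, fragment counts scaled by gene length and library size. The length covers all annotated exons of a gene, so the order of the septins and their shares depend on it.

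Septins assemble side by side into rods made from several family members, and the rods join into filaments and rings beneath the plasma membrane, along actin bundles and at the cleavage furrow of dividing cells. By sequence they fall into the SEPT2 group (here SEPT2 and the scarce SEPT1, SEPT4 and SEPT5), the SEPT3 group (SEPT9, with SEPT3 and SEPT12), the SEPT6 group (SEPT6, SEPT8, SEPT10, SEPT11 and SEPT14) and SEPT7, which stands alone. Members of a group can take the same place in a rod. TGF-β1 is a cytokine that signals through SMAD proteins and is known to remodel the actin cytoskeleton of epithelial cells.

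The date names could be checked against the values themselves. An FPKM value times the gene's exon length and the library's denominator gives back a whole number of fragments only when the length is the right one. With the GENCODE release 29 length of the septin of the same number, each of the 7 rows gave whole numbers in all 6 libraries, the largest deviation being 1.49e-06 of a fragment, for SEPT9. With the next best septin length the largest deviation over the libraries was between 0.229 and 0.358 of a fragment. For each of the 7 rows exactly 1 septin length fell within 0.05 of whole numbers, and it was the one the date names. The same held for 1-Sep, 3-Sep, 4-Sep and 5-Sep, while 12-Sep and 14-Sep were listed at 0 in every library and could not be checked.

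The libraries held 20740632 to 23719604 fragments assigned to rows with a unique name, from 53591796 to 60200816 reads. The treated cells had responded: PMEPA1, itself a brake on the pathway, stood at 14.1 ± 1.51 FPKM in control and 68.4 ± 6.12 FPKM in TGF-β1 libraries (SD, n = 3; log2 change 2.20, limma adjusted p = 7.1e-06). SMAD7, the inhibitory SMAD, and FN1, fibronectin, also rose (log2 changes 1.14 and 1.53, adjusted p = 0.000545 and 3.6e-05). The library control 3 lay apart from the other controls. On the first principal component of the genes tested, which held 54.9% of the variance, it stood at 1.63, the other controls at -18.7 and -22.0, and the TGF-β1 libraries at 6.46 to 18.5. Results are also given without it, but its place was read from the same expression values, and leaving it out raised the calls over all genes from 277 to 3307. The p-values without control 3 are therefore descriptions. Those without each other library stand beside them for SEPT2, SEPT7, SEPT9, SEPT10, SEPT11, ANLN and CDC42EP4, but not for the cell markers. Of the epithelial markers of the line, KRT8, KRT18 and KRT7 were present, KRT19 was listed at 0 and EPCAM stayed under 1 FPKM, as did UPK2, UPK3A and GATA3 of the 6 urothelial markers. The other urothelial markers were low, PPARG at means of 2.91 and 2.52 FPKM in control and TGF-β1 libraries, UPK1B at 1.81 and 1.24 and UPK1A at 1.25 and 0.738 FPKM. All 12 leukocyte, endothelial and fibroblast markers stayed below 1 FPKM in every library, with summed levels per list of at most 0.745 FPKM. The summed level of the 5 epithelial markers was 469 to 636 FPKM in control and 406 to 438 FPKM in TGF-β1 libraries, and that of the 6 urothelial markers 5.83 to 6.38 and 4.18 to 4.90 FPKM. None of the 6 markers tested passed by limma with all libraries. By voom KRT7 and KRT18 were lower with TGF-β1 (adjusted p = 0.028 and 0.011), and without control 3 KRT7, KRT8, KRT18 and UPK1A were lower (limma adjusted p = 0.013, 0.019, 0.0090 and 0.037). The part of these levels in the septin values was not tested. No label states whether a replicate is a culture of its own, and the p-values reflect just the variation among these libraries, which may be technical.

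Between control and TGF-β1 libraries, none of the 7 septins passed the test across all genes. The difference closest to it was in SEPT10, 22.1% higher with TGF-β1, and SEPT2, SEPT11 and SEPT7 stood 20.3%, 21.7% and 17.3% higher. SEPT9, the only abundant member of the SEPT3 group, stood 10.8% lower, and SEPT6 and SEPT8 differed by 4.12% and 0.658%. By limma on log2(FPKM + 1) with Benjamini-Hochberg adjustment, 0 of 7 passed an adjusted p of 0.05, against 2.44% of the 11363 genes tested (1.14% higher and 1.29% lower). At an unadjusted p under 0.05 there were 4 of 7, all higher, where 25.1% of all genes tested passed that level, 11.2% as higher and 13.9% as lower. By voom on the recovered fragments the count was also 0, where 9.35% of genes passed. Without control 3, 4 septins passed and all were higher, in a setting where 29.6% of genes passed, 12.8% as higher and 16.8% as lower.

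The start regions of the 4 septins that stood higher together, and of SEPT9 as the member that stood lower, are printed to show what lies before a RefSeq start of each. Each is the 250 bases before the RefSeq start nearest to the annotated 5′ end, read 5′ to 3′ on the gene's strand in build GRCh38.p14, from RefSeq. Capitals mark GGGCGG, the GC box bound by SP1, and CAGAC, the core of the SMAD binding element, on either strand, and neighbouring GC boxes can overlap. SEPT2 is at chr2:241315105-241315354 on the plus strand, SEPT10 at chr2:109613967-109614216 on the minus strand and SEPT11 at chr4:76949502-76949751 on the plus strand. SEPT7 is at chr7:35800736-35800985 and SEPT9 at chr17:77281249-77281498, both on the plus strand.
SEPT2: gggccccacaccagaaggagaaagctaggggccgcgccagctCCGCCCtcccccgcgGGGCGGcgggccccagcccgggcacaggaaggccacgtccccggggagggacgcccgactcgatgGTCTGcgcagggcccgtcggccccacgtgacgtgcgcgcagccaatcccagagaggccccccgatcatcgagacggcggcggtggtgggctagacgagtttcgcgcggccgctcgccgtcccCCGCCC
SEPT10: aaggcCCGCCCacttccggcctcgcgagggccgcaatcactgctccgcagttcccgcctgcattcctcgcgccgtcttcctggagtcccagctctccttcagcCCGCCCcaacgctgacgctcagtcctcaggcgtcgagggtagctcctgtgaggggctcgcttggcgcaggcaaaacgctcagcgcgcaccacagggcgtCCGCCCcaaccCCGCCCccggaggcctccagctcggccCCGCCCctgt
SEPT11: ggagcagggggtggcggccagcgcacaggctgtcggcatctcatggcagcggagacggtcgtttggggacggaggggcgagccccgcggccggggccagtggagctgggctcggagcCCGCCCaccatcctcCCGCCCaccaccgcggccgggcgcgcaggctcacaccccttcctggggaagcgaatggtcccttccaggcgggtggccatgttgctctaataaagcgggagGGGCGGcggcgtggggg
SEPT7: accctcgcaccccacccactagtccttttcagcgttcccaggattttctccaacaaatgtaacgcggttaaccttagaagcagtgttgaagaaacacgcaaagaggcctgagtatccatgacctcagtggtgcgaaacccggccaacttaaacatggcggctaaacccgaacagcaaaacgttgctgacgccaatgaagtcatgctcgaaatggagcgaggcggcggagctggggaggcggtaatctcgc
SEPT9: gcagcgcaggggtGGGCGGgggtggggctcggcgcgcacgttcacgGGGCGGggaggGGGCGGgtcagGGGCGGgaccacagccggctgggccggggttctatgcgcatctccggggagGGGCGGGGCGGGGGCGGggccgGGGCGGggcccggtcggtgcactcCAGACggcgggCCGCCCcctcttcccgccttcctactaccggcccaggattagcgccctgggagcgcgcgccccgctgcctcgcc

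These windows were rich in G and C, at 76.4% for SEPT2, 71.2% for SEPT10, 73.6% for SEPT11 and 80.4% for SEPT9, against a median of 58% over 35116 windows of the same length in the table. The SEPT7 window, at 53.6%, was the exception among those printed and held no GC box. SEPT9 held 9 GC boxes, SEPT10 held 5, and SEPT2 and SEPT11 held 3 each. Over all 7 septins 5 windows held a GC box and 3 held CAGAC (SEPT2, SEPT6 and SEPT9), where 42.6% and 38.0% of all windows did. TATAAA, the AP-1 motif (TGAGTCA or TGACTCA) and the CArG box were in none of the 7 on either strand, and in 10.7%, 4.20% and 1.16% of all windows. The other motifs searched were TGACG, in 3 of the 7 (SEPT2, SEPT7 and SEPT10), CCAAT in 2 and CACGTG in 1. These were in 21.2%, 32.0% and 6.34% of all windows. All 7 windows reach into the annotated gene, and those of SEPT2 and SEPT9 lie wholly inside it. The SEPT8 window, chr5:132778013-132778262 on the minus strand, also lies wholly inside the annotated gene. It is well downstream of the 5′ end and held none of the motifs named here. A match of letters is a description of the window and says nothing of binding. SEPT9 has 10 starts in this table and SEPT2 and SEPT7 have 3 each, so other starts of these genes are not shown.

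SEPT2, a core subunit that also binds non-muscle myosin II, was the most abundant septin. It stood at 72.7, 72.0 and 85.4 FPKM in controls 1, 2 and 3 and at 90.0, 91.0 and 95.8 FPKM in the TGF-β1 libraries. The groups did not overlap, and control 3 lay nearest to the treated libraries. The means were 76.7 ± 7.51 and 92.3 ± 3.13 FPKM (SD, n = 3), a log2 change of 0.27 (95% interval 0.042 to 0.49; limma adjusted p = 0.15), and of 0.35 without control 3 (adjusted p = 0.016). Leaving out any other library gave adjusted p-values of 0.17 to 0.45. SEPT2 (ENSG00000168385.17) lies on chromosome 2 at 241315100 to 241354027 of GRCh38. HDLBP, an RNA-binding protein gene on the opposite strand looked up for its position, shares exons with it, and 4.04% of the SEPT2 exon bases are also exonic in other genes. HDLBP itself stood at 57.6 ± 3.89 and 59.0 ± 4.15 FPKM (adjusted p = 0.84).

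SEPT7 is the member that no other septin can replace in the rod. It stood at 15.2, 15.7 and 17.3 FPKM in the controls and 17.9, 18.3 and 20.3 FPKM with TGF-β1. These groups did not overlap either, with control 3 again the highest control. The log2 change was 0.22 (95% interval 0.0080 to 0.43; adjusted p = 0.19), and 0.27 without control 3 (adjusted p = 0.041; 0.19 to 0.51 without any other library). SEPT7 (ENSG00000122545.19), on chromosome 7 at 35800932 to 35907105, has near-identical pseudogenes that can share reads with it, so its level is uncertain to that extent. Of these the transcribed SEPT7P2 ranged from 0.521 to 1.27 FPKM, and no other SEPT7 pseudogene row exceeded 0.388 FPKM.

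The SEPT6 group held 4 of the 7 septins, and its members differed in what they showed. SEPT10 stood at 32.1, 32.3 and 37.7 FPKM in the controls and 39.4, 42.5 and 42.8 FPKM with TGF-β1, with no overlap between groups. Its log2 change was 0.28 (95% interval 0.066 to 0.50; adjusted p = 0.13), and 0.36 without control 3 (adjusted p = 0.015; 0.13 to 0.42 without any other library). SEPT11, known from neurons and from the uptake of bacteria by cells, stood at 13.6, 12.9 and 16.9 FPKM in the controls and 17.6, 16.7 and 18.4 FPKM with TGF-β1. Here the groups overlapped, because control 3 was above TGF-β1 2. The log2 change was 0.27 (95% interval 0.033 to 0.52; adjusted p = 0.16), and 0.38 without control 3 (adjusted p = 0.013; 0.20 to 0.46 without any other library).

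SEPT6, the X-linked member that names the group, stood at 8.11, 7.88 and 8.80 FPKM in the controls and 8.89, 9.54 and 7.39 FPKM with TGF-β1. The library TGF-β1 3 held the lowest of the 6 values and TGF-β1 2 the highest. The log2 change was 0.047 (95% interval -0.18 to 0.28; adjusted p = 0.80). SEPT8, a member known from platelets and neurons, stood at 14.3, 14.8 and 14.4 FPKM in the controls and 15.6, 14.5 and 13.7 FPKM with TGF-β1. The treated libraries lay on both sides of the controls. The log2 change was 0.0072 (95% interval -0.19 to 0.20; adjusted p = 0.96). Of the SEPT8 exon bases 14.9% are shared with CCNI2, a cyclin gene on the opposite strand that had at most 2 fragments in any library. The SEPT6 interval includes the log2 changes of SEPT2, SEPT7 and SEPT11, and the SEPT8 interval ends just below that of SEPT7. Differences in change between septins were not tested. SEPT10 (ENSG00000186522.14) lies on chromosome 2 at 109542982 to 109614206 and SEPT11 (ENSG00000138758.11) on chromosome 4 at 76949703 to 77040384. SEPT6 (ENSG00000125354.22) lies on chromosome X at 119615724 to 119693370 and SEPT8 (ENSG00000164402.13) on chromosome 5 at 132750817 to 132807241.

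SEPT9 binds microtubules and bundles actin filaments, and methylation of its promoter is the basis of a blood test for colorectal cancer. It stood at 28.7, 26.8 and 23.5 FPKM in the controls and 26.3, 22.6 and 21.6 FPKM with TGF-β1. The groups overlapped, and control 3 was the lowest control, again on the side of the treated libraries. The log2 change was -0.16 (95% interval -0.40 to 0.084; adjusted p = 0.37), and -0.24 without control 3 (adjusted p = 0.10; 0.22 to 0.75 without any other library). SEPT9 (ENSG00000184640.17) spans chromosome 17 from 77280569 to 77500596 and has 47 annotated transcripts. The deposited values sum over all of them, so a shift between SEPT9 isoforms would not be seen.

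**Figure D1:**
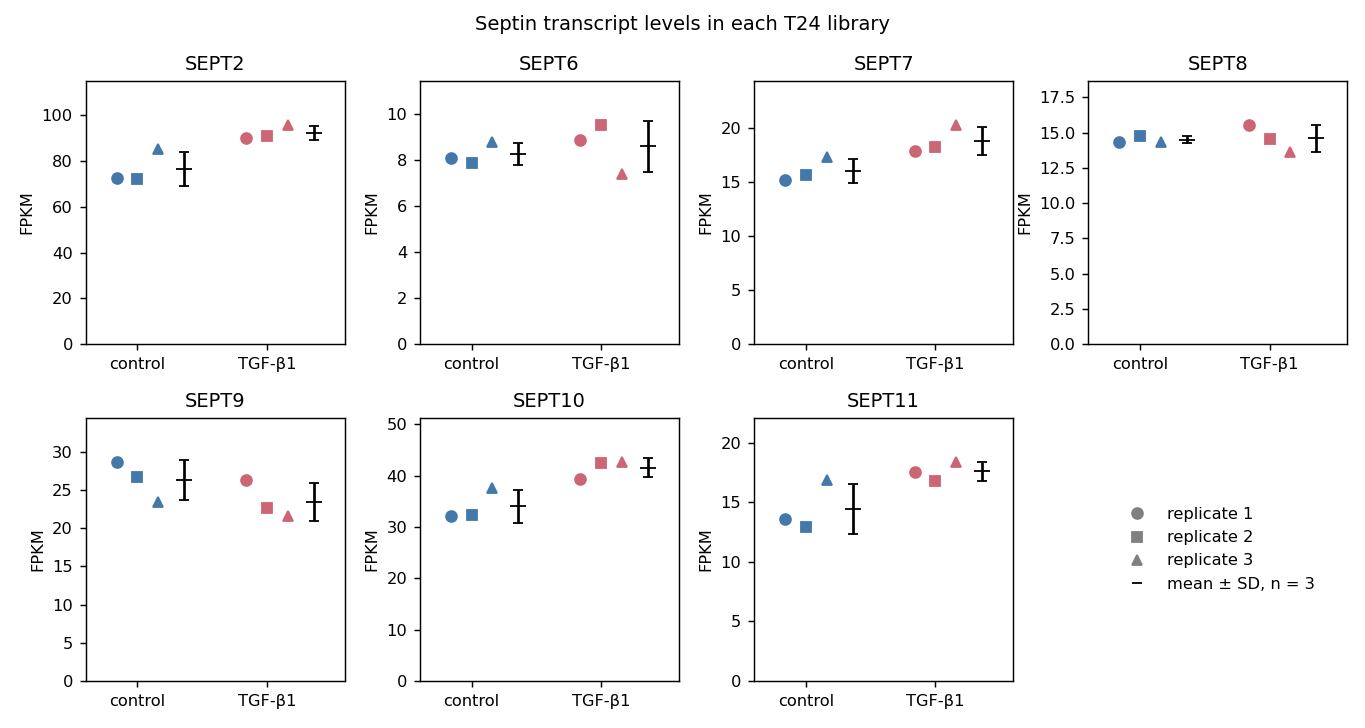
FPKM (vertical axes, from 0) of the 7 septins in control and TGF-β1 libraries, a panel for each gene; marker shapes are replicates 1 to 3 and the bar is the mean ± SD of 3 libraries. In the SEPT2, SEPT7 and SEPT10 panels the lowest TGF-β1 library lies above the highest control, as at 90.0 against 85.4 FPKM for SEPT2, and the other 4 panels overlap.

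The order of levels in FPKM was the same at the top in both groups. It depends on the exon lengths used: in control 1 SEPT9 had 8264 fragments over 12844 bases, and SEPT10 had 2971 over 4131 bases. In control libraries it ran SEPT2, SEPT10, SEPT9, SEPT7, SEPT8, SEPT11 and SEPT6, from a mean of 76.7 FPKM down to 8.26 FPKM. Of these neighbours SEPT8 and SEPT11 overlapped, while SEPT7 and SEPT8 were separated by little, with the lowest SEPT7 value at 15.2 and the highest SEPT8 value at 14.8 FPKM. In TGF-β1 libraries SEPT11 stood above SEPT8, at means of 17.6 and 14.6 FPKM, and the neighbours SEPT7 and SEPT11 overlapped. The ratio of SEPT2 to SEPT9 was 2.53, 2.69 and 3.63 in the controls and 3.42, 4.02 and 4.44 with TGF-β1, so the groups overlapped through control 3. The ratio of SEPT11 to SEPT6 within their group was 1.67, 1.64 and 1.92 in the controls and 1.98, 1.76 and 2.49 with TGF-β1, which also overlapped. That of SEPT10 to SEPT9 overlapped too, with control 3 above TGF-β1 1. The ratio of SEPT10 to SEPT6 did not overlap, at 3.96, 4.10 and 4.28 in the controls and 4.44, 4.45 and 5.79 with TGF-β1. How often ratios of other gene pairs separate the groups was not computed. SEPT10 and SEPT6 also differ in GC content, at 40.8% and 48.0%, with which log2 changes varied over all genes, as described further on. The part of GC content in this ratio was not tested.

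The other septin genes were barely detected. SEPT1 ranged from 0.359 to 0.796 FPKM, SEPT3 from 0.224 to 0.525, SEPT5 from 0.156 to 0.426 and SEPT4 from 0.00583 to 0.0882 FPKM, and none reached the minimum of 1 FPKM for testing. SEPT4, known as a septin of sperm and brain, had 37 fragments over the controls and 15 over the TGF-β1 libraries. SEPT12, a testis septin, and SEPT14 had no fragment in any library. A count of 0 allows up to 3 fragments per library, or at most 0.0667 FPKM for SEPT12 and 0.0359 FPKM for SEPT14, covering counting error only. Of the SEPT5 exon bases 73.0% are also exonic in other genes, mainly the read-through gene SEPT5-GP1BB, and how shared fragments were assigned is not stated in the labels, so its level is uncertain.

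Summed over the 13 September rows, septin transcripts stood at 186, 184 and 205 FPKM in the controls and 217, 217 and 221 FPKM with TGF-β1. The groups did not overlap and the means were 192 ± 11.6 and 218 ± 2.34 FPKM (SD, n = 3), a ratio of 1.14. The exact two-sided permutation p for the sum was 0.1, the smallest possible here. The lowest share of this sum held by the 7 members in any library was 99.1%. Bulk values cannot tell fewer cells of a kind from less RNA per cell. The make-up of the sum was compared by group. The SEPT2 group held 40.5 ± 1.39% of it in control and 42.7 ± 0.857% in TGF-β1 libraries, the SEPT6 group 37.1 ± 0.691% and 37.7 ± 0.632%, SEPT7 8.36 ± 0.204% and 8.62 ± 0.496%, and the SEPT3 group, which is nearly all SEPT9, 14.01 ± 2.17% and 10.97 ± 1.18%. The SEPT3 group share was 15.7, 14.8 and 11.6% in the controls and 12.3, 10.6 and 9.98% with TGF-β1, which overlapped through control 3. The exact two-sided permutation p was 0.2 for the SEPT2 and SEPT3 groups (0.4 adjusted over the 4 shares), 0.4 for the SEPT6 group and 0.6 for SEPT7 (adjusted 0.53 and 0.6). With 3 against 3 libraries this test cannot go below 0.1.

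**Figure D2:**
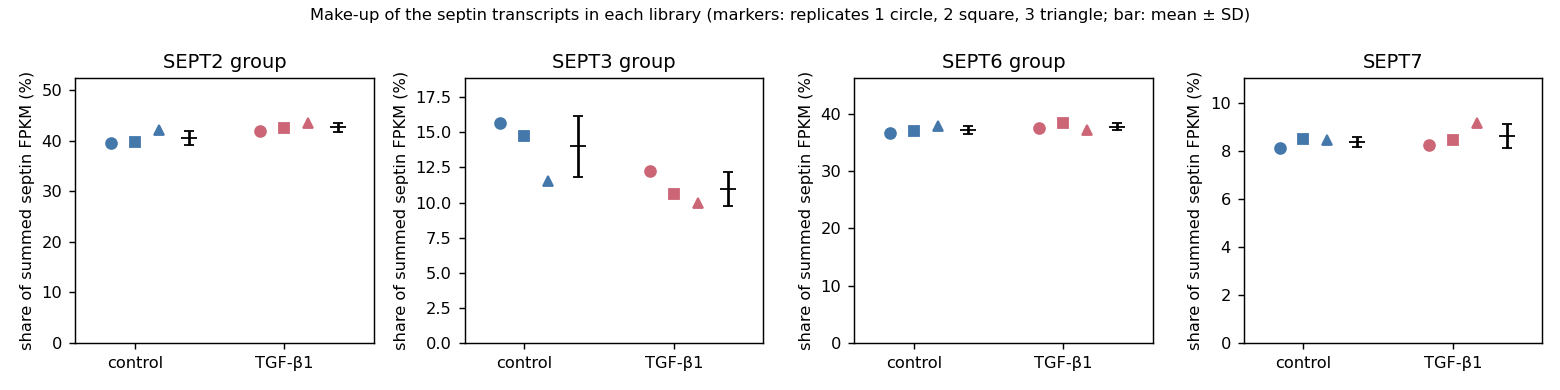
Share of the summed septin FPKM (%, vertical axes from 0) held by each septin group in control and TGF-β1 libraries; shapes are replicates and bars the mean ± SD of 3 libraries. The SEPT3 group, nearly all SEPT9, holds 9.98 to 12.3% with TGF-β1 and 11.6 to 15.7% in the controls, with control 3 inside the treated range.

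Of the 7 septins, 6 had a log2 change above 0, where 52% of all genes tested did, and the median over the septins was 0.22 against 0.012 over all genes. With a trend in GC content and length removed, described further on, these medians were 0.012 and 0.0053. Non-overlapping groups with TGF-β1 higher were found for 3 septins, SEPT2, SEPT7 and SEPT10, where 14.6% of all genes tested showed this, and with TGF-β1 lower for 0 septins against 12.5% of genes. The septins were chosen with earlier results of these data known, so these counts are descriptions.

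**Figure D3:**
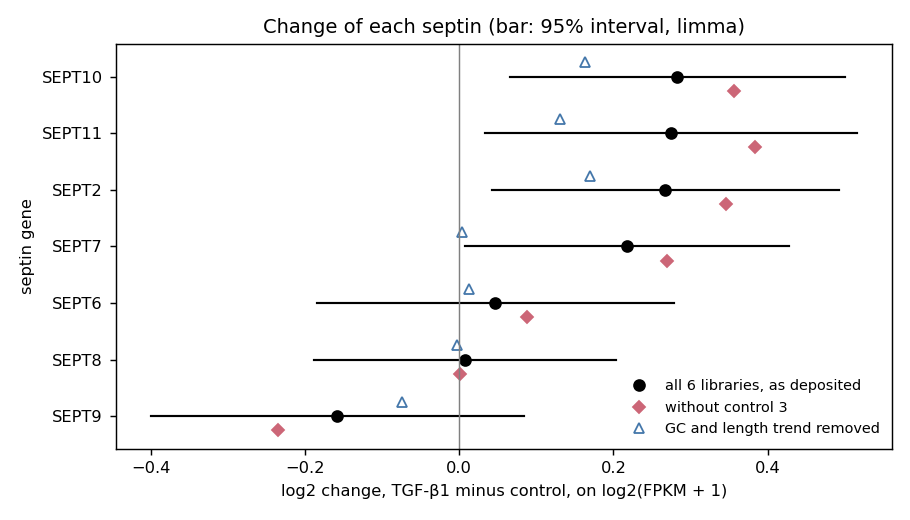
Log2 change of each septin (horizontal axis, TGF-β1 minus control on log2(FPKM + 1)); black circles and bars are the limma estimate and 95% interval from all 6 libraries, diamonds the estimate without control 3, triangles that with a trend in GC content and length removed. The bars of SEPT10, SEPT11, SEPT2 and SEPT7 lie above 0, but removing the trend takes SEPT7 from 0.22 to 0.0042 and SEPT10 from 0.28 to 0.16.

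The changes of the septins went in part with base composition. The GC content of the longest annotated transcript was 35.3% for SEPT7, 40.8% for SEPT10, 41.7% for SEPT11, 44.3% for SEPT2, 48.0% for SEPT6, 50.5% for SEPT8 and 60.1% for SEPT9. The 4 septins that stood higher with TGF-β1 were thus those lowest in GC, and SEPT9, the lower one, had the highest GC. The order was not strict, since SEPT7, lowest in GC, had a smaller change than SEPT10, SEPT11 and SEPT2. The same gradient ran through the whole table. With all genes tested in 10 bins by GC content, the median log2 change ran from 0.17 in the lowest bin to -0.26 in the highest. SEPT7, at 0.22, lay in the lowest bin, and SEPT9 in bin 9, whose median was -0.18 beside the -0.16 of SEPT9. SEPT6 and SEPT8, at 0.047 and 0.0072, lay in bins 5 and 6 with medians of 0.046 and -0.0091. SEPT10, SEPT11 and SEPT2, at 0.28, 0.27 and 0.27, stood above the medians of bins 2, 3 and 4, which were 0.16, 0.12 and 0.092.

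**Figure D4:**
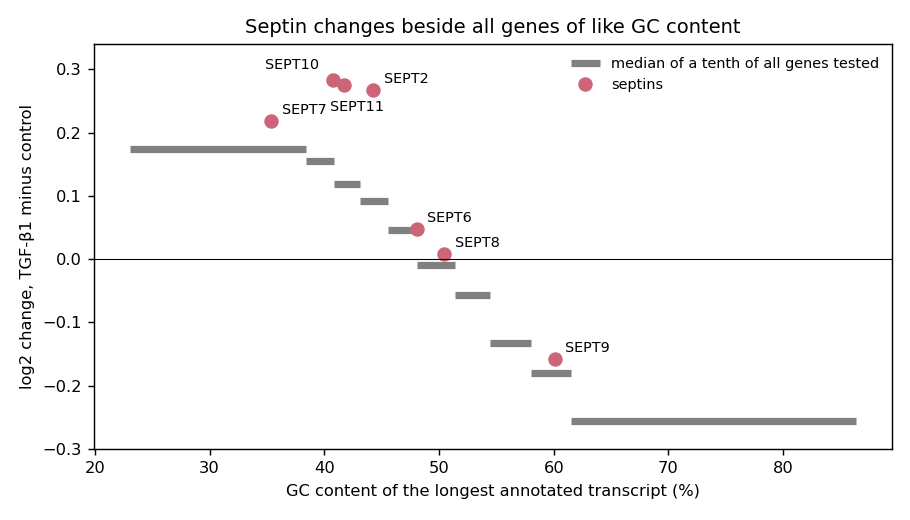
Log2 change (vertical axis, TGF-β1 minus control) against the GC content of the longest annotated transcript (%); circles are the 7 septins and grey segments the medians of all genes tested in 10 bins by GC content. SEPT6, SEPT8 and SEPT9 lie close to the median of their bin, as at -0.16 beside -0.18 for SEPT9, and SEPT10, SEPT11 and SEPT2 lie above it.

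After a trend with GC content and length was removed from each library, the log2 changes were 0.17 for SEPT2, 0.16 for SEPT10, 0.13 for SEPT11, 0.012 for SEPT6, 0.0042 for SEPT7, -0.0031 for SEPT8 and -0.074 for SEPT9. The adjusted p-values of SEPT2 and SEPT10 were then 0.13 and 0.14, and 0 of 7 septins passed by limma, against 4.43% of the 11299 genes in that fit. At an unadjusted p under 0.05 there were 2 of 7, SEPT2 and SEPT10, against 21.8% of genes. The adjusted p of SEPT7, lowest of the septins in GC, was then 0.98. The source of the gradient was not tested.

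Across the 6 libraries, the profiles closest to SEPT10, the septin with the smallest p, were those of AP5M1 and EXO1. AP5M1 is a subunit of an adaptor complex and EXO1 a DNA repair exonuclease. The measure was the root mean square difference of log2(FPKM + 1) values centred on each gene's mean, and it was 0.014 and 0.019 for these genes among 11323 compared. AP5M1 was low, at 2.03 ± 0.314 and 2.67 ± 0.157 FPKM, and its likeness to SEPT10 depends on the transform. Both had a log2 change of 0.28, but with a pseudocount of 0.1 AP5M1 had 0.39 and SEPT10 0.29. With the GC and length trend removed AP5M1 had 0.055 and SEPT10 0.16. EXO1 stood at 6.16, 6.11 and 7.27 FPKM in the controls and 7.80, 8.66 and 8.48 FPKM with TGF-β1, again with control 3 as the highest control. Among the septins SEPT2 came closest to SEPT10, as the 22nd nearest of the genes compared at 0.029. SEPT7 and SEPT11 followed at 0.056 and 0.066, and SEPT6, SEPT8 and SEPT9 were far off at 0.17, 0.18 and 0.29.

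The proteins that act on septins showed no member past the threshold. The CDC42EP proteins, or Borgs, bind septins under control of the GTPase CDC42. Of 6 genes in this list 3 were tested, and by limma 0 passed, 0 at an unadjusted p under 0.05 and 0 by voom, where 2.44%, 25.1% and 9.35% of all genes did. With 3 genes tested these counts show little. CDC42EP1 stood at 38.3 ± 5.74 and 36.8 ± 2.85 FPKM, CDC42EP3 at 3.29 ± 0.273 and 3.31 ± 0.192 FPKM and CDC42EP4 at 10.8 ± 1.39 and 9.18 ± 0.202 FPKM. The CDC42EP4 log2 change was -0.21 (adjusted p = 0.23), -0.31 without control 3 (adjusted p = 0.022; 0.26 to 0.58 without any other library). It was -0.045 once the trend in GC and length was taken out (adjusted p = 0.70). CDC42EP1 alone passed with the GC and length trend removed, at a log2 change of 0.29 (adjusted p = 0.015), opposite in sign to its -0.046 without that step. CDC42 was listed at 0.379 and 0.238 FPKM, and 59.4% of its exon bases are shared with other annotated genes. CDC42EP2, with 84.8% shared, was listed at 0.0199 and 0 FPKM and CDC42EP5, with none shared, at 0.195 and 0.212 FPKM. ARHGEF18 and PRC1 of the lists below, named after their values were seen, share 76.4% and 58.4% of their exon bases and also stayed under 1 FPKM. Whether shared exons bear on these low levels was not tested.

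Of 12 septin binding partners 11 were tested and 0 passed by limma, with 2 at an unadjusted p under 0.05, both higher, 1 by voom and 2 higher without control 3. Over all genes tested these shares were 2.44%, 25.1%, 9.35% and 12.8%, and the counts in this list lay near them. ANLN, anillin, which links septins to the contractile ring, stood at 15.8 ± 2.42 and 21.4 ± 1.53 FPKM, without overlap (log2 change 0.42, SE 0.11, adjusted p = 0.076). It passed by voom (adjusted p = 0.018) and without control 3 (limma adjusted p = 0.0083; 0.078 to 0.27 without any other library). CD2AP, an adaptor protein, stood at 8.89 ± 1.26 and 11.3 ± 0.472 FPKM (log2 change 0.32, adjusted p = 0.12). RTKN, rhotekin, which binds SEPT9, stood at 3.86 ± 0.815 and 3.11 ± 0.273 FPKM (adjusted p = 0.26). HDAC6, a tubulin deacetylase, EXOC3, an exocyst subunit, and SOCS7 had log2 changes of -0.19, -0.18 and 0.15 (adjusted p = 0.32, 0.26 and 0.38). The median log2 change of the list was 0.065. With the GC and length trend removed the changes of ANLN, CD2AP, RTKN and EXOC3 were smaller, at 0.28, 0.14, -0.055 and -0.064. That of HDAC6 was -0.14, and that of SOCS7 stayed at 0.15.

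Of 14 genes of cytokinesis 13 were tested and 0 passed by limma, with 3 at an unadjusted p under 0.05, all higher, and 2 by voom, where 25.1% and 9.35% of all genes passed. ANLN, which is in both lists, was 1 of the 3. KIF23, a kinesin of the central spindle, stood at 11.6 ± 1.96 and 14.9 ± 0.915 FPKM (adjusted p = 0.12), and CEP55, an abscission factor, at 33.2 ± 4.73 and 42.0 ± 1.15 FPKM (adjusted p = 0.11). ECT2, the exchange factor for RhoA at the furrow, stood at 23.9 ± 4.25 and 28.5 ± 0.684 FPKM, RHOA at 355 ± 19.3 and 400 ± 50 FPKM and RACGAP1, a partner of ECT2, at 23.9 ± 2.23 and 26.6 ± 1.03 FPKM (adjusted p = 0.20, 0.39 and 0.34). The median log2 change of the list was 0.15, 10 of 13 being above 0 where 52% of all genes were, and 5 passed as higher without control 3 against 12.8% of all genes. With the GC and length trend removed the log2 changes of ECT2 and RACGAP1 went from 0.26 and 0.15 to 0.096 and 0.065. Those of KIF23 and CEP55 went from 0.34 and 0.34 to 0.22 and 0.24, and that of RHOA from 0.16 to 0.18. The median of the list was then 0.12.

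**Figure D5:**
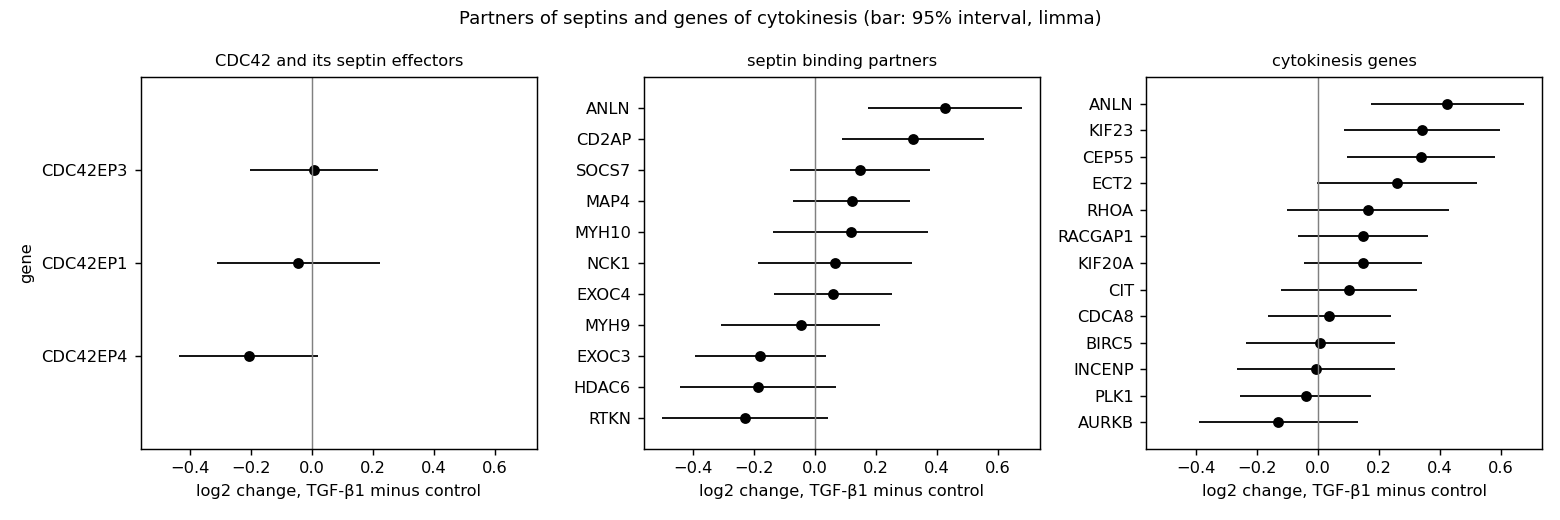
Log2 change (horizontal axes, TGF-β1 minus control) of the tested genes of 3 lists: CDC42 effectors, septin binding partners and cytokinesis genes; circles are limma estimates from 6 libraries and bars 95% intervals. The bars of ANLN, CD2AP, KIF23 and CEP55 lie above 0, with ANLN highest at 0.42, and those of the other genes include 0.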

How the data were processed

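The authors deposited FPKM values for 6 RNA-seq libraries of 150 bp read pairs, per the file headers and labels, in a table and in 6 files with the same values. Per the submitters' processing notes, HISAT2 2.0.5, featureCounts 1.5.0-p3 and build hg38 were used. The labels name neither the annotation nor the strand setting. The first 11 rows are mapping totals and were left out. Multiplying FPKM by GENCODE release 29 exon lengths and 1 denominator per library, set without the date rows, gave whole fragments (within 0.05) for 99.999% of 126561 values above 0. No pair of replicates agreed within sampling noise.

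Differences were tested with limma (version 3.58.1, R 4.3.3; trend and robust options on) after a log2(FPKM + 1) transform. A gene entered if 3 or more libraries reached 1 FPKM, which left 11363, and treatment was the single term. P-values were Benjamini-Hochberg adjusted over all of them, with a threshold of 0.05. The fit was tested on simulated data with independent noise for each gene. Those data held neither a shifted control library nor a GC gradient, so that test cannot judge the effect of either. The members and lists were chosen with earlier results of these data known. Genes named are the septins, PMEPA1, SMAD7 and FN1, up to 6 of each list (those past the threshold first, then by size of change) and the 3 profiles nearest to the septin with the smallest p, of which 1 is not reported here. Alternatives were other pseudocounts, filters and scalings, removal of a GC and length trend, limma without trend or robust estimation, a replicate block, voom, and leaving out each library.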

Additional observations from a re-analysis of the deposited data

How the results depend on the processing

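The count of 0 of 7 septins past the threshold held under every alternative run except leaving out a library, where it ranged from 0 to 4, the 4 being without control 3. Of 105 values for single septins under alternatives, 97 kept direction and side of the threshold, 4 passed it (SEPT2, SEPT7, SEPT10 and SEPT11 without control 3) and 4 turned direction. Those were SEPT6, which ranged from -0.023 to 0.14 on leaving out a library, and SEPT8, from -0.037 to 0.050, and -0.0031 after removal of a trend in GC and length. CDC42EP1 turned to 0.0017 with quantile normalization and to 0.29 after that removal, and ranged from -0.17 to 0.019 on leaving out a library. CDC42EP3 turned to -0.0085 and -0.10 under the same scalings and ranged from -0.044 to 0.047. The difference in the SEPT6 group share, 0.63 percentage points, ranged from 0.27 without TGF-β1 2 to 1.01 without control 3. That in the share of SEPT7 ranged from -0.021 to 0.45 percentage points.

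Over all genes 277 passed, against 15 with no filter, 500 at a minimum of 5 FPKM, 500 after trend removal, 1057 by voom and 123 to 3307 on leaving out a library (3307 without control 3, 123 without control 1). SMAD7 missed the threshold with no filter (adjusted p = 0.061). With the trend removed 294 of the 500 were higher, against 130 of the 277. The CDC42 list gave 1 with the trend removed and 0 to 1 on leaving out a library. The binding partners gave 1 at a minimum of 5 FPKM, 1 by voom and 0 to 2 on leaving out a library. The cytokinesis genes gave 1, 2 and 0 to 5. Whether replicate numbers pair the libraries is not known. Same-numbered deviations correlated at 0.25, -0.071 and 0.17, and those of unlike number at -0.24 to 0.069. With the replicate number as a block 767 genes, 0 septins, 0 CDC42 effectors, 1 binding partner and 1 cytokinesis gene passed, and the exact sign-flip p for the shares was 0.25 or 0.5. The cause of these changes was not tested.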
